A study of Mus musculus with 155 samples.

Results

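Junb, Nr4a1 and Ier2 are 3 immediate early genes among the 3422 genes of a single-cell expression table, and they are described here cell by cell in 5 sorted populations of mouse brain cells. They were taken by name, as the rows carrying these symbols, and all 3 are in the table. Cells were isolated from the subventricular zone and the corpus callosum of mice of 8 to 10 weeks and profiled by SMART-Seq2, which reads full-length polyadenylated RNA of 1 cell per library. The 40 OligNBL cells carried both reporters and came from a cross of the CB6-Tg(Gad1-EGFP)G42Zjh/J and Olig2-tdTomato TH39Gsat/Mmcd strains after demyelination. The 27 NBL cells were GFP+ cells of CB6-Tg(Gad1-EGFP)G42Zjh/J mice after demyelination, and the 22 OL cells were Tomato+ cells of Olig2-tdTomato TH39Gsat/Mmcd mice after demyelination. Demyelination followed an injection of LPC (lysophosphatidylcholine, a lipid that strips myelin) 6 days before the cells were taken. The 29 O cells (Tomato+) and the 37 NB cells (GFP+) came from uninjected mice of those same Olig2-tdTomato and Gad1-EGFP strains. The Gad1 and Olig2 regulatory sequences drive the reporters, 5 mice are given for each condition, and no cell is tied to a mouse, so a population counts as 1 sample and no test between populations was possible. OligNBL titles carry a control mark although the lesion label places these cells in demyelinated mice, and the lesion label is followed here. Single cells are called by their names in the labels (CRBT101, for example). Cell order here follows the number in that name, and each title holds a second number. Neither was taken as an order of library preparation.

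Immediate early genes are switched on within minutes of a stimulus by factors that already exist in the cell, without new protein synthesis. Growth factors, neuronal activity and stress are known inducers, and enzymatic dissociation of tissue is another. Junb encodes a subunit of the AP-1 transcription factor, which pairs with Fos family proteins. Nr4a1 (also called Nur77) encodes an orphan nuclear receptor, and Ier2 (also called pip92) a small nuclear protein. In the brain such transcripts are widely used as marks of recent activation of a cell.

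In GRCm38 with GENCODE M21, Ier2 (ENSMUSG00000053560.4) lies on chromosome 8 from 84661331 to 84662852 and Junb (ENSMUSG00000052837.6) on the same chromosome from 84974484 to 84978718, both on the minus strand. They are 311631 bases apart, with 3 other measured genes between them. Nr4a1 (ENSMUSG00000023034.7) lies on the plus strand of chromosome 15 from 101254269 to 101274795. RefSeq sequence upstream of the transcription start was at hand for Junb and Nr4a1, the pair found in the same cells. These 250 bases are shown for both, read 5′ to 3′ on the gene's own strand (GRCm38.p6, Junb at chr8:84978749-84978998, Nr4a1 at chr15:101266596-101266845), with capitals marking TGACG on either strand (the core of the cyclic AMP response element) and CCAAT.
Junb: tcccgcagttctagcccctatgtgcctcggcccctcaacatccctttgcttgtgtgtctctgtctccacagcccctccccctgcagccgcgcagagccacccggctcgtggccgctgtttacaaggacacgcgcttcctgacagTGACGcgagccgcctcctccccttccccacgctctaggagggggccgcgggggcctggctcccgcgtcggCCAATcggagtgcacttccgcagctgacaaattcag
Nr4a1: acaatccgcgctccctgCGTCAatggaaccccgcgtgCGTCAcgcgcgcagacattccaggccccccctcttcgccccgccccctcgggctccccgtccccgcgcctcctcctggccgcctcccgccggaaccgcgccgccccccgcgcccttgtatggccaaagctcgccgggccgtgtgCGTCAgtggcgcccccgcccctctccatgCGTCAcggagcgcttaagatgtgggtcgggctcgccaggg
The Nr4a1 stretch lies upstream of the start of the shorter transcripts and within an intron of the longest annotated one. TGACG or its complement CGTCA occurred 4 times before Nr4a1, the farthest 233 bases and the nearest ones 69 and 40 bases ahead of the start, and 1 time before Junb. Of 32851 RefSeq promoters, 17.8% held this motif at least 1 time within the same length and 0.688% held it 3 or more times. CCAAT occurred 1 time before Junb, 36 bases ahead, and in 33.8% of promoters. The full site TGACGTCA (1.55% of promoters, and overlapping TGACG where it occurs), the AP-1 site TGANTCA (6.75%), TATAAA (12.4%) and the CArG box, the motif of serum response factor (1.47%), had no match on either strand in these 2 stretches. These are exact matches of letters and were not tied to binding, and near matches were not counted. G and C made up 66.4% of the Junb stretch and 74.4% of the Nr4a1 stretch, against a median of 52.4% over all promoters.

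The values are named estimated counts but follow one distribution in all cells. The 8 highest values were equal between cells within a relative tolerance of 1e-06, and column totals differed by 0.101%, so a value largely records the gene's rank in its cell and sequencing depth cannot be read from it. Levels are averages of log2(value + 1) over the cells of a population, each with its SD. A gene is called present where it was among the 500 highest genes of its cell, a value of about 10.8, and 153 cells had enough genes for this call. Shares have exact Clopper-Pearson 95% intervals, which cover counting error only. Between 353 and 1910 genes were detected per cell. The labelled cell types were checked by markers. At least 2 of 10 measured neuroblast markers were present in 40 of 40 OligNBL, 25 of 27 NBL, 8 of 22 OL, 6 of 29 O and 32 of 35 NB cells, and at least 2 of 9 oligodendrocyte markers in 1, 1, 22, 29 and 0 cells of these populations in the same order. At least 2 of 6 oligodendrocyte progenitor markers were present in 19, 5, 1, 4 and 1 of these cells. Microglial, astrocytic and ependymal markers were not analysed here, and of the endothelial list only Pecam1 was measured, present in 147 of 153 cells. Of the mature neuron list only Snap25 was measured. It was present in 6 of 40 OligNBL, 0 of 27 NBL, 6 of 22 OL, 18 of 29 O and 0 of 35 NB cells.

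Junb, the AP-1 subunit, was at 0 in most cells of every population. In OligNBL cells the lowest and median values were 0 and the highest was 32.8, in cell CRBT101. In NBL cells lowest and median were also 0 and the highest was 87422.9, in cell CRBT78, which is rank 11 of that cell's genes. The other 7 NBL cells with Junb present had 311 (cell CRBT66), 64.4 (cell CRBT84) and, in cells CRBT79 to CRBT83, values of 11.7 to 27. The OL population had 3 cells with Junb present, at 1606 (cell CRBT180), 969 (cell CRBT175) and 13.5 (cell CRBT181), around a median of 0. The single nonzero O cell had 1.17. Among NB cells, 1 had 12.2, outside its 500 highest genes, and the only other nonzero value, 0.00585, was the lowest value of its cell and shared by most of its genes. Values of all 5 populations thus overlapped at 0, and high values lay in NBL and OL cells.

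Junb was present in 1 of 40 OligNBL cells (2.5%, interval 0.0633 to 13.2%), 8 of 27 NBL cells (29.6%, 13.8 to 50.2%), 3 of 22 OL cells (13.6%, 2.91 to 34.9%), 0 of 29 O cells (up to 11.9%) and 0 of 35 NB cells (up to 10.0%). Its level was 0.27 ± 0.94 in OligNBL, 2.08 ± 3.73 in NBL, 1.33 ± 3.05 in OL, 0.04 ± 0.21 in O and 0.10 ± 0.61 in NB. From high to low the order is NBL, OL, OligNBL, NB and O, and each step in it is smaller than the SD of its higher population.

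**Figure D1:**
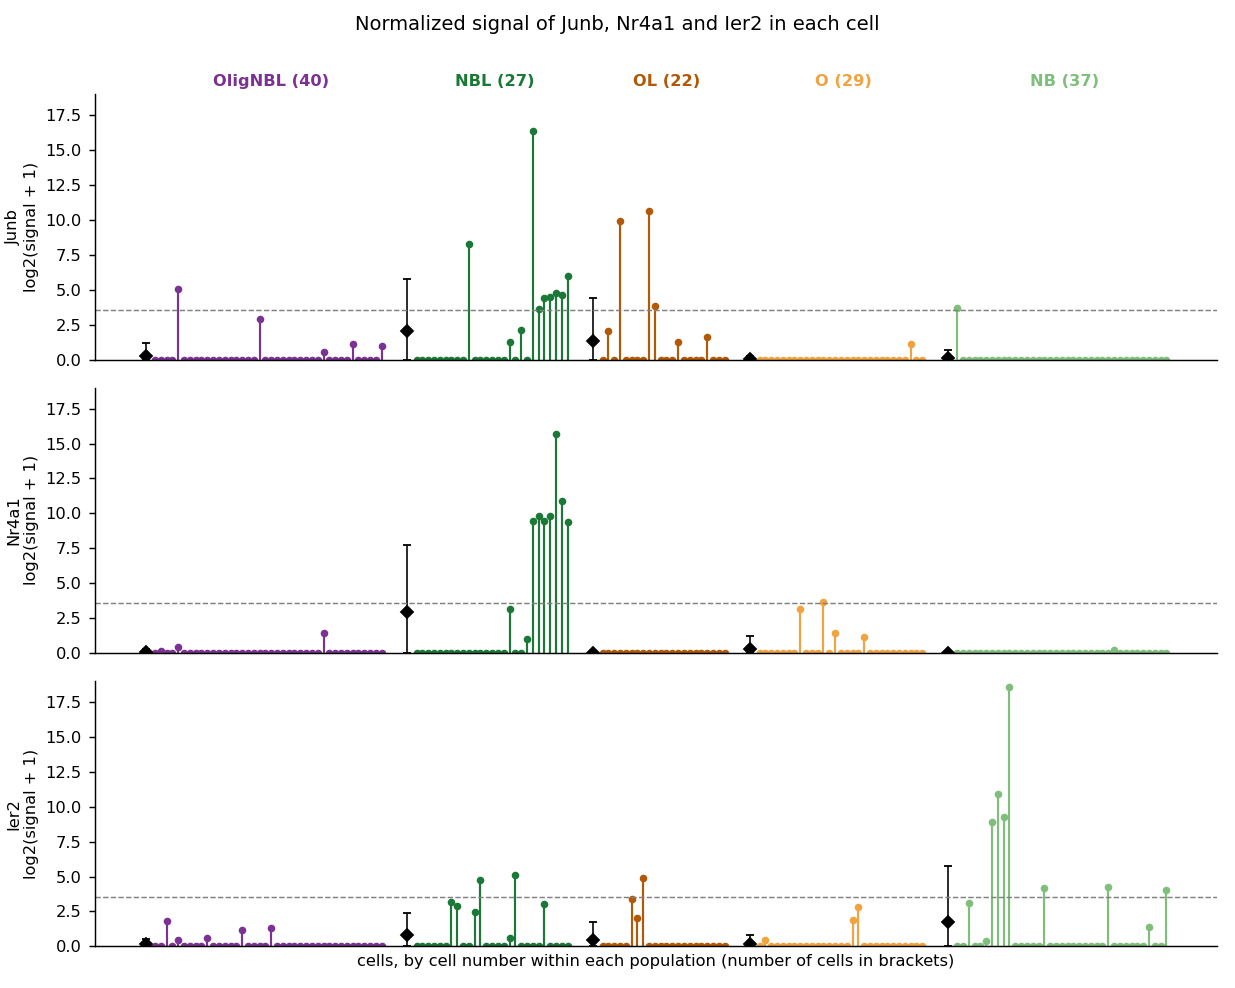
Each point is 1 cell, ordered by cell number within its population, and the y axis is log2(signal + 1) of the deposited normalized value. Diamonds and bars at the left of each block are the mean and SD over cells, with bars cut at 0, and the dashed line marks the median value at rank 500. Most cells sit at 0, and the tallest points are 1 NBL cell for Junb, 1 NBL cell for Nr4a1 and 1 NB cell for Ier2.

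Nr4a1, the nuclear receptor gene, was high in a single unbroken series of NBL cells. Cells CRBT78 to CRBT84 had 711, 886, 693, 916, 53599, 1900 and 654 in that order, with the highest in cell CRBT82 at rank 15. Every other NBL cell was at 7.73 or lower. Cells CRBT78 to CRBT84 were singled out after these values were seen, so this gap follows from the choice. Of all 3422 genes, 281 were present in all 7 of cells CRBT78 to CRBT84. Outside NBL the highest value was 11.4, in O cell CRBT205, and 4 O cells had a value above 0. The highest OligNBL value was 1.68 and the highest NB value 0.169. All 22 OL cells were listed at 0.

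Nr4a1 was present in 0 of 40 OligNBL cells (interval up to 8.81%), 7 of 27 NBL cells (25.9%, 11.1 to 46.3%), 0 of 22 OL cells (up to 15.4%), 1 of 29 O cells (3.45%, 0.0873 to 17.8%) and 0 of 35 NB cells (up to 10.0%). Levels were 0.05 ± 0.23 in OligNBL, 2.91 ± 4.83 in NBL, 0 in OL, 0.32 ± 0.92 in O and 0.01 ± 0.04 in NB. The order from high to low is NBL, O, OligNBL, NB and OL, with each step smaller than the SD of the higher population.

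Ier2, the nuclear protein gene, was high in other cells. NB cells CRBT22, CRBT23, CRBT24 and CRBT25 had 470, 1874, 626 and 382074, and the value of cell CRBT25 is the fourth highest of that cell. These 4 cells had 504 to 619 genes detected, against an NB median of 1114, so that most of their detected genes count as present. A further 3 NB cells had it present at 17.9, 16.8 and 15.4, and the NB median was 0. In NBL the 2 cells with Ier2 present had 34.3 (cell CRBT75) and 26.4 (cell CRBT68), and in OL the 1 such cell had 28.1 (cell CRBT179). The highest OligNBL value was 2.47 and the highest O value 6.13, both below the 500 highest genes.

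Ier2 was present in 0 of 40 OligNBL cells (interval up to 8.81%), 2 of 27 NBL cells (7.41%, 0.910 to 24.3%), 1 of 22 OL cells (4.55%, 0.115 to 22.8%), 0 of 29 O cells (up to 11.9%) and 7 of 35 NB cells (20%, 8.44 to 36.9%). Levels were 0.13 ± 0.40 in OligNBL, 0.82 ± 1.58 in NBL, 0.47 ± 1.28 in OL, 0.18 ± 0.62 in O and 1.75 ± 4.00 in NB. The order is NB, NBL, OL, O and OligNBL, and again no step exceeds the SD of the higher population. Counting any value above the lowest of a cell, 10 OligNBL, 16 NBL, 9 OL, 8 O and 12 NB cells had at least 1 of the 3 genes.

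Set beside all genes, the members were sparse overall. Junb was present in 12, Nr4a1 in 8 and Ier2 in 10 of 153 cells, and 69.6%, 86.9% and 77.9% of genes were present in at least as many cells. The median gene was present in 7.5% of OligNBL, 7.41% of NBL, 4.55% of OL, 6.90% of O and 5.71% of NB cells. In NBL, 17.1% of genes were present in more cells than Junb and 19.1% in more than Nr4a1, in OL 29.5% were in more cells than Junb, and in NB 23.9% were in more cells than Ier2. In the remaining pairs of gene and population the members were present in no larger a share of cells than the median gene. In OligNBL, 62.4% of genes were present in more cells than Junb and 75.8% in more than Nr4a1 or Ier2.

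**Figure D2:**
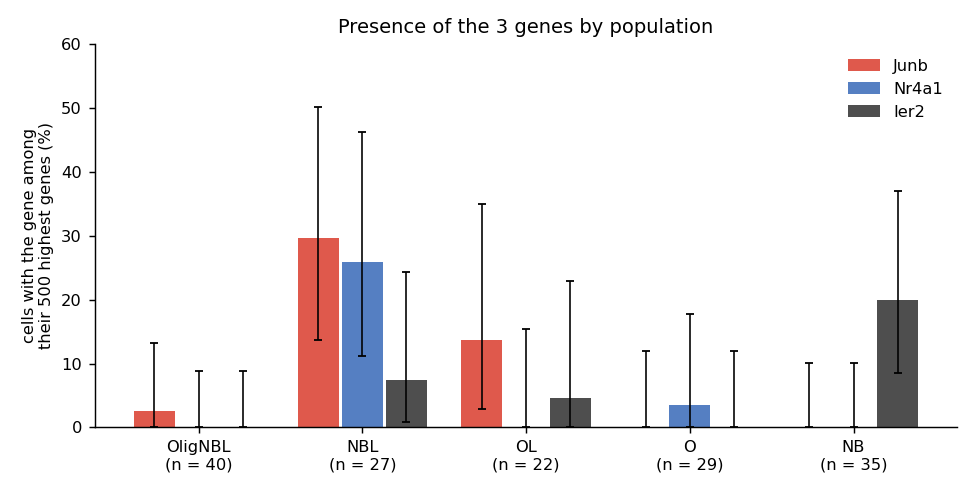
Bars give the percentage of cells of each population with the gene among their 500 highest genes, for Junb, Nr4a1 and Ier2, and lines are exact 95% binomial intervals over cells. Junb and Nr4a1 stood at 29.6% and 25.9% in NBL and Ier2 at 20% in NB, with wide intervals.

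Co-presence was limited to Junb with Nr4a1 in 1 population. Both were present in 7 of 27 NBL cells (25.9%, interval 11.1 to 46.3%), all of them cells CRBT78 to CRBT84, which is 87.5% of the NBL cells with Junb and 100% of those with Nr4a1. The product of the separate shares corresponds to 2.07 cells. Presence in all 7 of cells CRBT78 to CRBT84 was shared by 281 of the 3422 genes, Junb and Nr4a1 included. No cell of the OligNBL, OL, O or NB populations had 2 of the genes present, which allows shares of up to 8.81%, 15.4%, 11.9% and 10.0%. Ier2 shared no cell with Junb (12 and 10 cells of 153) or with Nr4a1 (8 and 10 cells), where the products of shares correspond to 0.784 and 0.523 cells. All 3 genes were present together in 0 of 153 cells. With any value above the lowest of the cell, 3 cells held all 3: OligNBL cell CRBT101 (32.8 for Junb and 0.356 for each of the others), NBL cell CRBT74 (1.44, 7.73 and 0.487 for Junb, Nr4a1 and Ier2) and NBL cell CRBT80 (20.3, 693 and 7.05).

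Across all cells, log2 values of Junb and Nr4a1 correlated with Pearson r = 0.54 (Spearman 0.48), and Nr4a1 was the ninth most alike of 3421 genes to Junb, whereas 170 genes were more alike to Nr4a1 than Junb was. Without cells CRBT78 to CRBT84, r was 0.0089, so the relation rests on these 7 cells. Ier2 had r = -0.07 with Junb and -0.04 with Nr4a1. These coefficients are descriptions, as cells of a population share mice, strain and processing. Correlation with the number of genes detected was 0.08 for Junb, 0.16 for Nr4a1 and -0.28 for Ier2.

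Cells with neighboring numbers had alike profiles, and the 3 genes followed this structure. Average linkage of the cells, stopped at a correlation of 0.4, left 21 parts of at least 3 cells of 1 population. Cells CRBT78 to CRBT84 formed 1 part on their own, with a mean level of 10.64 for Nr4a1 and 6.35 for Junb, whereas the other 3 NBL parts were between 0 and 0.38 for Nr4a1 and between 0 and 1.07 for Junb. NB cells CRBT23 to CRBT25 formed another part with an Ier2 level of 12.90, and the other 4 NB parts were between 0.39 and 1.30. In OL, cells CRBT180 to CRBT182 had a Junb level of 4.83 and the other 3 parts had lower means. The parts were made from the same values, so these figures describe where the signal lay.

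**Figure D3:**
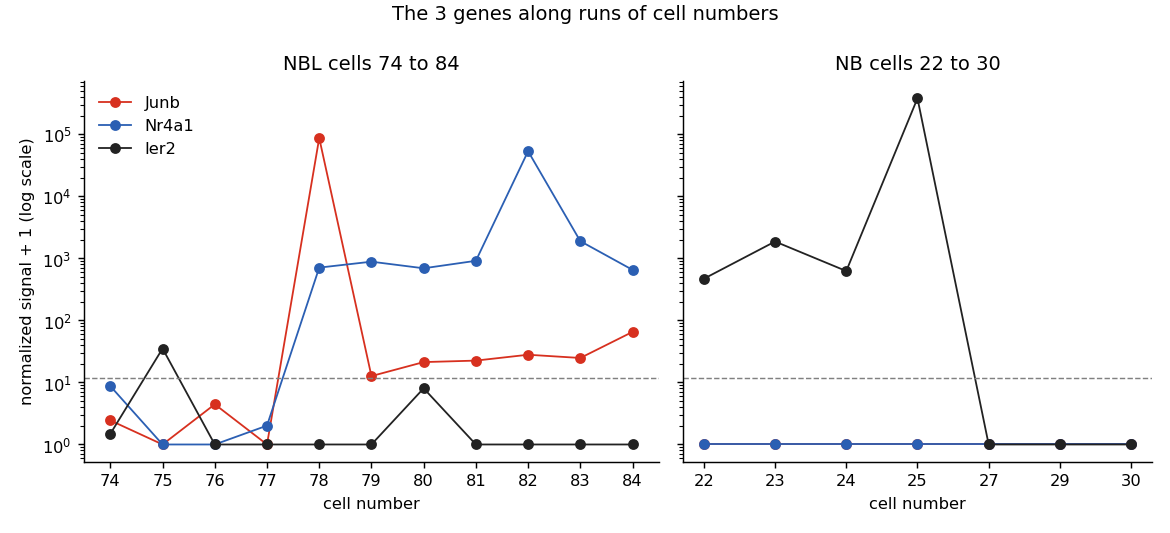
Lines join the normalized signal (1 added, log scale) of Junb, Nr4a1 and Ier2 over successive cell numbers, NBL cells CRBT74 to CRBT84 (left) and NB cells CRBT22 to CRBT30 (right), and the dashed line is the median value at rank 500. Junb and Nr4a1 are both present in cells CRBT78 to CRBT84 but peak in different cells, CRBT78 and CRBT82. Outside its peak cell, Junb is only at 11.7 to 64.4 in these cells, near the dashed line in most. Ier2 peaks in cell CRBT25, with Junb and Nr4a1 at 0 in cells CRBT22 to CRBT30.

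Within each series of cells, 1 cell held most of the summed value. As a value largely records rank, these shares and ratios follow ranks and are not shares of transcripts. For Junb, cell CRBT78 held 99.8% of the summed value of cells CRBT78 to CRBT84 and was 3854 times the median of the other 6 cells, which ranged from 11.7 to 64.4. For Nr4a1, cell CRBT82 held 90.3% and was 67.1 times the median of the other 6, which ranged from 654 to 1900. For Ier2, cell CRBT25 held 99.2% of the sum over cells CRBT22 to CRBT25 and was 611 times the median of the other 3. Cells CRBT22 to CRBT25 were singled out after the Ier2 values were seen, and cell CRBT22 fell in another part than cells CRBT23 to CRBT25.

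Many genes with this restricted presence had the same form. Of the 3422 genes, 3.04% were present in all 7 of cells CRBT78 to CRBT84 and in at most 10 of the other 146 cells. Their highest values fell apart into 52 genes between 26.3 and 407 and 52 genes between 8153 and 741641, with none in between. In the upper 52, which include Junb and Nr4a1, the highest cell was 51.2 to 3854 times the median of the other 6 (median 151). In the lower 52 this ratio was 1.21 to 6.47 (median 2.12). The highest cell of the upper genes was cell CRBT82 for 17 genes, cell CRBT81 for 9, cells CRBT80 and CRBT83 for 7 each, cell CRBT78 for 6, cell CRBT84 for 5 and cell CRBT79 for 1. The ratio of Junb was the highest of all of these, and 46 genes had a larger ratio than Nr4a1. For cells CRBT22 to CRBT25, 16 genes met the same criteria, of which 15 had a ratio of at least 10 and 1 had a larger ratio than Ier2. Whether signal passed between libraries was not tested.

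**Figure D4:**
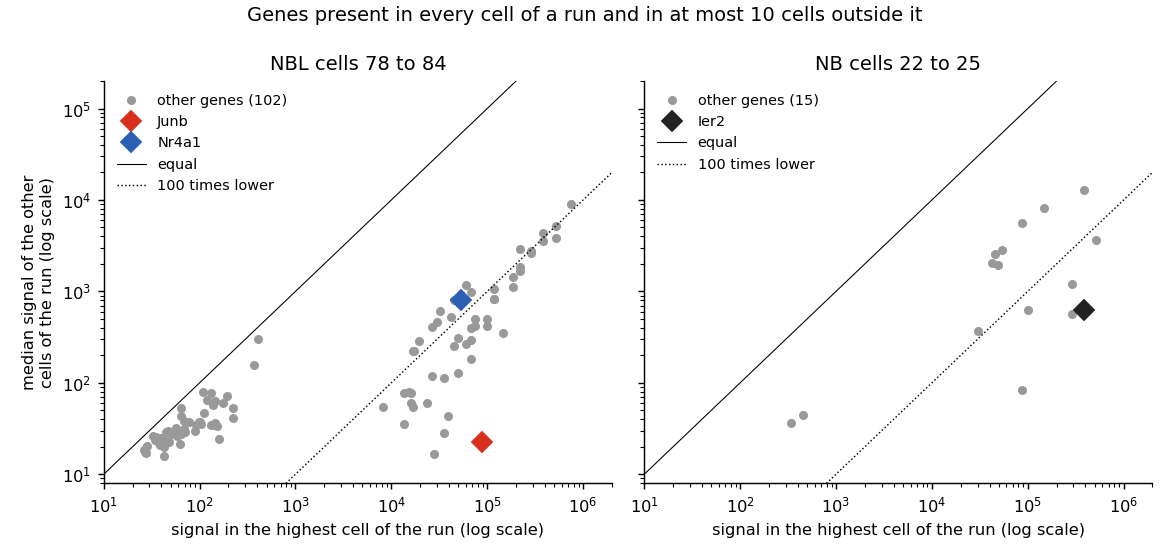
Each point is a gene present in every cell of the series and in at most 10 other cells, with its signal in the highest cell (x) against the median of the other cells (y), both on log scales. In cells CRBT78 to CRBT84 the genes form 2 clouds, and Junb and Nr4a1 lie in the one where 1 cell is 51.2 to 3854 times the others. Ier2 lies among 16 genes of cells CRBT22 to CRBT25.

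Among genes present in at least 10 cells, those most alike to each member followed the same cells. For Nr4a1 these were Dusp12 (r = 0.95 over all cells), Ube3b (0.93), Mkrn2 (0.89), Fbxo11 (0.89) and Kat6b (0.89), all present in 7 of cells CRBT78 to CRBT84 and all highest in cell CRBT82. For Junb they were Pde1c (0.65), Bloc1s6 (0.64), Sarnp (0.64), Dennd1a (0.63) and Gm21988 (0.60), all present in the same 7 cells and all highest in cell CRBT78. For Ier2 they were Trp53bp2 (0.76, highest in cell CRBT25), Stard9 (0.67), Mphosph9 (0.63), Rab5a (0.61) and Csnk2b (0.60), each present in all 4 of cells CRBT22 to CRBT25. After centring on population means the same 5 genes led for Junb and for Nr4a1, and Pax6 (0.56) took the place of Csnk2b for Ier2. Most of the measured genes next to the members on the chromosome differed from this. Rnaseh2a, 4716 bases from Junb, was the exception, with an r of 0.55 to Junb, above the 0.54 of Nr4a1. It was present in 7 cells, too few for the list above, and 4 of these had Junb. Hook2 on the other side of Junb shared 0 cells with Junb. Galnt6 and Atg101 shared 0 cells with Nr4a1, and D8Ertd738e and Trmt1 shared 0 and 1 with Ier2.

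Demyelination was compared within each reporter strain. In NBL against NB, Nr4a1 was at 2.91 ± 4.83 in NBL and 0.01 ± 0.04 in NB, a difference of 2.91, and Junb at 2.08 ± 3.73 in NBL and 0.10 ± 0.61 in NB, a difference of 1.98. These 2 of 3 genes passed a difference of 1 upward, as did 17.4% of all genes, and 6.14% and 9.82% of genes had larger differences. Ier2 was at 0.82 ± 1.58 in NBL and 1.75 ± 4.00 in NB, a difference of -0.94. Without cells CRBT78 to CRBT84 the Nr4a1 and Junb differences were 0.20 and 0.49, and without cells CRBT22 to CRBT25 the Ier2 difference was 0.29, of the opposite sign, as it was (0.33) among cells with 1000 or more detected genes. In OL against O, Junb was at 1.33 ± 3.05 in OL and 0.04 ± 0.21 in O, a difference of 1.30, with 15.9% of all genes past 1 in that direction. Restricted to cells with 1000 or more detected genes it was 0.27, a setting in which 0 OL cells had Junb present. Nr4a1 (-0.32) and Ier2 (0.29) stayed within 1. The difference between the 2 strains in their response was not tested.

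OligNBL cells had low values of all 3 genes, as did most cells of the other populations. Against NBL, which shares the lesion but only 1 parent strain, Nr4a1 was at 0.05 ± 0.23 in OligNBL and 2.91 ± 4.83 in NBL (difference -2.86), and Junb at 0.27 ± 0.94 in OligNBL and 2.08 ± 3.73 in NBL (-1.82). Thus 2 of 3 genes were lower by at least 1, against 20.3% of all genes, and these differences were -0.16 and -0.32 without cells CRBT78 to CRBT84. Ier2 differed by -0.68. Against OL, Junb was at 0.27 ± 0.94 in OligNBL and 1.33 ± 3.05 in OL (-1.07), with 21.1% of genes past 1 downward, and the value was -0.04 when cells under 1000 detected genes were left out. Nr4a1 (0.05) and Ier2 (-0.33) stayed within 1 of OL. Against NB, Ier2 was at 0.13 ± 0.40 in OligNBL and 1.75 ± 4.00 in NB (difference -1.62, with 18.9% of genes past 1 downward). Junb (0.17) and Nr4a1 (0.04) stayed within 1 of NB. O against NB gave -1.58 for Ier2 (0.18 ± 0.62 in O, 1.75 ± 4.00 in NB), with 20.7% of genes past 1 downward. Without cells CRBT22 to CRBT25 these Ier2 differences against NB were -0.39 and -0.35. Comparisons share populations, so their values are not independent.

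Of 61 other immediate early and rapid response genes listed (under 63 symbols, older ones included), 3 were measured, and 0 of these were present in all 7 of cells CRBT78 to CRBT84. Of all 3422 genes, 281 were present in all 7. Plk2, a polo-like kinase gene induced by activity, was present in 17 of 40 OligNBL cells, 4 of 27 NBL, 4 of 22 OL, 2 of 29 O and 1 of 35 NB cells, with levels of 4.36 ± 5.33, 1.31 ± 2.58, 2.69 ± 4.87, 0.43 ± 1.12 and 0.17 ± 0.74 in that order. Zfp36, which encodes an mRNA decay factor (tristetraprolin), was present in 0 OligNBL, 0 NBL, 2 OL, 10 O and 0 NB cells. Its level was 2.17 ± 3.47 in OL and 4.59 ± 5.94 in O. Btg1, an antiproliferative gene, was present in 6 OligNBL, 5 NBL, 1 OL, 2 O and 3 NB cells. Plk2 and Btg1 were each present in 2 of cells CRBT78 to CRBT84 and Zfp36 in 0, and all 3 were present in 0 of cells CRBT22 to CRBT25. In NBL against NB 1 of the 3 (Plk2) was higher by at least 1 and 0 were lower (17.4% and 17.3% of all genes), with a median difference of 0.78 beside -0.0036 for all genes. In OL against O 1 was higher (Plk2, 2.26) and 2 were lower (Zfp36, -2.42, and Btg1, -1.15), beside 15.9% and 15.7% of all genes, with a median of -1.15 beside -0.10.

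Of 35 upstream and partner genes, 9 were measured and 0 were present in all 7 of cells CRBT78 to CRBT84 (281 of 3422 over all genes). The most widely present was Camk4, a calcium and calmodulin dependent kinase gene, in 11 OligNBL, 13 NBL, 17 OL, 22 O and 17 NB cells. Ppp2ca, the catalytic subunit of protein phosphatase 2A, was present in 7 OligNBL, 4 NBL, 14 OL, 20 O and 11 NB cells, and Atf2, a CREB family factor that also pairs with Jun proteins, in 1, 2, 1, 2 and 20 cells of these populations. Another 3 genes of the list were picked after their values were seen. Srf, the serum response factor that acts at CArG boxes, was present in 1 OligNBL, 13 NBL, 1 OL, 1 O and 0 NB cells, but in only 1 of cells CRBT78 to CRBT84. Mapk9, which encodes a Jun N-terminal kinase, was present in 2 OligNBL, 6 NBL, 0 OL, 0 O and 0 NB cells, and 5 of the 6 NBL cells were among cells CRBT78 to CRBT84. Crtc1, a coactivator of CREB, was present in 5 OligNBL, 5 NBL, 0 OL, 0 O and 1 NB cells, and 4 of the 5 NBL cells were among cells CRBT78 to CRBT84. By contrast, 4 of the 9 measured genes, Atf2 and Ppp2ca among them, were present in 0 of cells CRBT78 to CRBT84, and Camk4 in 1. Ppp2r1a, a scaffold subunit of protein phosphatase 2A, was present in 7 of the 10 cells with Ier2, and in 13 of 35 NB cells. It was present in 2 of cells CRBT22 to CRBT25 and in 1 of cells CRBT78 to CRBT84. Ppp2ca, the catalytic subunit, was present in 1 of the 10 cells with Ier2. Sharing of cells with Ier2 was not set beside that of all genes. In NBL against NB 2 of the 9 were higher by at least 1 (Srf, 6.17, and Mapk9, 1.91) and 2 were lower (Atf2, -3.46, and Ppp2r1a, -1.72), close to the 17.4% and 17.3% of all genes, and the median was 0.26 beside -0.0036 for all genes.

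Heat shock and dissociation genes, of which 14 of 26 were measured, were in part present in the same cells. Hspa8, Hsp90aa1 and Ubb, which encode the chaperones HSC70 and HSP90 alpha and ubiquitin, were present in all 7 of cells CRBT78 to CRBT84, which is 3 of 14 beside 281 of 3422 over all genes, and 9 of the 14 were present in 0 of these cells. Hsp90aa1 was named after its values were seen. Hsp90ab1 and Hspd1, also among the 4 most widely present of the list, were in 0 of these cells. Over the whole NBL population Hspa8 was present in 19, Hsp90aa1 in 10 and Ubb in 23 of 27 cells, and in NB in 15, 17 and 18 of 35 cells. The list's median difference in NBL against NB was 0.03 (-0.0036 for all genes), with 2 of 14 higher and 6 lower by at least 1, beside 17.4% higher and 17.3% lower over all genes. In O against NB the median was -1.72 (0.09 for all genes), with 3 of 14 higher and 8 lower, beside 19.4% and 20.7% over all genes. The part of dissociation in the values of Junb, Nr4a1 and Ier2 was not tested. Of the 10 neuroblast markers, Dcx and Tubb3 were present in all 7 of cells CRBT78 to CRBT84, Dlx1 and Gad2 in 6 and Dlx2 in 1, whereas Cd24a, Stmn2, Sox11, Sp8 and Gad1, which encodes Gad67, were present in 0 of them. The summed signal of the 10 neuroblast markers, scaled to a total of 1000000 per cell, ranged from 314 to 14629 in these cells, against a median of 90.3 over all NBL cells, and 7 of the 9 oligodendrocyte markers were at 0 in all 7. In cells CRBT22 to CRBT25 that sum ranged from 42.7 to 516, below the NB median of 1084, and 8 of the 9 oligodendrocyte markers were at 0.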

How the data were processed

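Each sample is 1 sorted cell, profiled by SMART-Seq2. The submitters' processing notes name kallisto, limma and the build GRCm38, with versions not given in the sources used here. A single table was deposited by the authors, named estimated counts, whose values behave as a quantile-normalized signal: the deposited columns have nearly equal distributions. Raw depth is thus unknown, and no source used here states the selection of the 3422 genes. Cells were grouped by the population label.

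Levels are means of log2(value + 1). Presence means the 500 highest genes of a cell, and 2 NB cells with fewer detected genes were left out of shares. A gene was detected above the cell's lowest value, as 1 cell has no 0. A difference of levels of at least 1 was the size of call, and no p-value was computed as no replicate exists. Sets of alike cells were joined by average linkage at a mean correlation of 0.4. Named genes were the 3 members, the 5 genes most alike to each by Pearson correlation among genes present in at least 10 cells, the measured immediate early genes, up to 4 genes of each other list by number of cells, and the nearest measured genes. Members and lists were chosen with earlier results of these data known, and the runs of cells CRBT78 to CRBT84 and CRBT22 to CRBT25 after seeing them. Positions used GENCODE M21, matched for 3314 genes, and promoters RefSeq. The level and likeness steps were tested on simulated data, with the outcome not given here. Scripts ran in Python 3.11.15 with scipy 1.17.1, numpy 2.4.6, matplotlib 3.10.9 and pandas 2.3.3. Alternatives covered the pseudocount, presence, cells used, weighting and joining.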

Additional observations from a re-analysis of the deposited data

How the results depend on the processing

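All 8 level differences of at least 1 kept their sign under each alternative run (64 of 64 values), and 43 of the 64 were still at least 1. In each of these differences 1 population was near 0, so few alternatives could change the sign. The Ier2 difference of NBL minus NB (-0.94), not among the 8, became 0.33 in cells with at least 1000 genes detected. It was 0.29 without cells CRBT22 to CRBT25. Without cells CRBT78 to CRBT84, an alternative added after seeing the data, the Nr4a1 difference was -0.16 for OligNBL minus NBL and 0.20 for NBL minus NB. With the 100 highest genes as presence, also added, Junb was present in 0% of OligNBL and 3.70% of NBL cells, Nr4a1 in 7.41% of NBL and 0% of O cells, Ier2 in 0% of NBL, 0% of OL and 5.41% of NB cells, and 0% of NBL cells had at least 2 of the genes. With the 300 highest genes, Junb was present in 11.1% of NBL, Nr4a1 in 0% of O and Ier2 in 0% of OL cells, and 7.41% of NBL cells had at least 2 genes. With 800, Ier2 was present in 25% of NBL cells. Any value above 0, or above the cell's lowest value, gave Ier2 in 12.5% of OligNBL and 25.9% of NBL cells. In cells with at least 1000 genes detected Junb was present in 0% of OL and Nr4a1 in 0% of O cells. The correlation of Junb and Nr4a1 was 0.76 over means of sets, 0.42 with a pseudocount of 10 and 0.0089 without cells CRBT78 to CRBT84. The highest set mean of Ier2 was 12.90, but 1.53 when sets were joined at 0.5, where the part of NB cells CRBT23 to CRBT25 was no longer kept. Of 36 counts over all genes, 22 moved by over 1.5 times, with a pseudocount of 10 or a difference of at least 2, for example 338 and 334 in place of 595 genes higher in NBL minus NB. Raising the difference to at least 2 can only lower such a count. The cause of the other changes was not tested. No paired analysis was possible because each population is 1 sample with no mouse named. Depth is unknown, so absence here means a low rank or a value of 0.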
